A study of Mus musculus with 18 samples.

Results

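Kdm3a and 9 other genes whose products remove or add methyl groups on lysine 9 of histone H3 (H3K9) were followed across 18 RNA sequencing libraries of mouse pancreatic tumor cells. The 10 genes were chosen by symbol: 3 members of the KDM3 subfamily (Kdm3a, Kdm3b, Jmjd1c), 3 of the KDM4 subfamily (Kdm4a, Kdm4b, Kdm4c), Kdm1a, and the methyltransferases Ehmt1, Ehmt2 and Setdb1. All 10 were among the 24493 symbols of the deposited table and all 10 were among the 13422 genes tested, which had a mean of at least 1 TPM (a read abundance scaled to transcript length and to library total). The tumor cell lines 6419c5 and 6694c2, of C57BL/6 background, had been implanted under the skin of mice, and tumor cells were sorted from the implants. Each line had 3 groups: 2 Kdm3a knockout clones, called clone A and clone B here, and the wild-type (WT) line, with 3 libraries per group. Implantation, sorting and the RNA kit were shared by all 6 groups. A knockout group is 1 clone, so its libraries measure that clone; the editing method, the sort marker and the number of animals behind a group are not labelled, and the p-values measure the spread between these libraries, which may be technical. The comparison asks which of these transcripts differed between knockout and WT cells, including relatives of Kdm3a that could compensate for it.

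Methylation of H3K9 marks silent chromatin, and its level at a gene depends on the balance of enzymes that write and erase it. Enzymes of the KDM3 and KDM4 subfamilies share a JmjC domain that uses iron, oxygen and 2-oxoglutarate: KDM3 enzymes act on mono- and dimethylated H3K9, and KDM4 enzymes mainly on the trimethylated form and on methylated H3K36. Kdm1a (LSD1) is a flavin-dependent demethylase known mainly for H3K4, Ehmt2 (G9a) and Ehmt1 (GLP) form a complex that mono- and dimethylates H3K9, and Setdb1 trimethylates it. Kdm3a is also known as a gene induced by low oxygen through hypoxia-inducible factors.

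The promoter windows of the 3 genes on which the comparisons below mostly turn are shown because Kdm3a is a known hypoxia target: Kdm3a was the knocked-out gene, Kdm4a was higher in knockouts of both lines, and Ehmt2 changed in 6419c5 clone B. Each window holds 250 bases before and 50 after a RefSeq transcription start (GRCm38.p6), written 5′ to 3′ on the gene's strand, with capitals at the hypoxia response element core, ACGTG or GCGTG on either strand (overlapping matches merged). The windows are chr6:71632868-71633167 (Kdm3a), chr4:118179994-118180293 (Kdm4a) and chr17:34898224-34898523 (Ehmt2).
Kdm3a: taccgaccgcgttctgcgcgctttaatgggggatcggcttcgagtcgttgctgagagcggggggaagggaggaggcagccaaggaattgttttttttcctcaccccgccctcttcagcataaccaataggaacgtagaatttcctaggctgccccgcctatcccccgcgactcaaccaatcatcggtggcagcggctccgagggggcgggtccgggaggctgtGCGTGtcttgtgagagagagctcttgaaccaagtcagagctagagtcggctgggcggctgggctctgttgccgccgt
Kdm4a: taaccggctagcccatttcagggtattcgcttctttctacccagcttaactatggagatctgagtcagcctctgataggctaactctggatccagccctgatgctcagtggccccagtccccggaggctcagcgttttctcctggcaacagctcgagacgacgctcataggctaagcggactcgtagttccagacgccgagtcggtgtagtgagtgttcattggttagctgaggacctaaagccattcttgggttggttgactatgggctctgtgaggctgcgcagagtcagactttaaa
Ehmt2: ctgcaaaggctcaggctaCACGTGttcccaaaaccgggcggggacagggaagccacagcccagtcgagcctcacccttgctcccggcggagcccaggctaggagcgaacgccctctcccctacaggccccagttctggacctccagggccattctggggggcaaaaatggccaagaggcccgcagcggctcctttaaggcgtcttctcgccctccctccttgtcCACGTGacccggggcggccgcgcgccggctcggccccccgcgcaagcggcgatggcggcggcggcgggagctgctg
The Kdm3a window held 1 match, the Kdm4a window 0, and the Ehmt2 window 4, from 2 palindromic sites that each match on both strands. Of 32851 RefSeq windows of the same length, 43.8% held at least 1 match, so a match in such a window is common. Windows of 8 of the 10 genes were counted (13 windows). Kdm4b had no window, and Kdm3b is not reported here.

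In the mm10 coordinates of the GENCODE M21 annotation, the KDM3 genes lie at chr6:71588972-71632990 on the minus strand (Kdm3a), chr18:34777047-34838660 on the plus strand (Kdm3b) and chr10:67096125-67256326 on the plus strand (Jmjd1c). The KDM4 genes lie at chr4:118136957-118180043, minus (Kdm4a), chr17:56326062-56402870, plus (Kdm4b), and chr4:74242497-74405860, plus (Kdm4c). Kdm1a lies at chr4:136550540-136602723, minus. The methyltransferase genes lie at chr2:24789928-24919614, minus (Ehmt1), chr17:34898469-34914052, plus (Ehmt2), and chr3:95323525-95357202, minus (Setdb1). All 10 are protein-coding. Jmjd1c, Kdm1a and Setdb1 each overlap the end of a gene on the opposite strand that is also in the table (Reep3 by 821 bases, Luzp1 by 4241 and Cers2 by 75), and whether the counting used strand is not given in the sources used here.

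The deposited values are TPM, so sequencing depth is unknown and no counting interval can be given. Libraries of a group correlated at 0.932 to 0.989 (Pearson, across genes), and 12213 to 13590 genes per library reached 1 TPM. The tumor cell label was set against 8 epithelial markers, whose summed level was 5462 to 12263 TPM over the 18 libraries. Krt8, Krt18 and Krt19 were the most abundant of the 8, with Krt18 at 2141 to 3204 TPM. Krt7 ranged from 37.7 to 1217 TPM and Epcam from 0.745 to 273 TPM, and Cldn4 was listed at 0 in 2 libraries. In 6694c2, Epcam averaged 4.64 TPM (clone A) and 0.896 TPM (clone B), against 25.04 TPM in WT (n = 3 each). The sum therefore does not show that each marker was high. Other cells were also represented: the sum of 10 macrophage markers, none of them at 0 in any library, ranged from 142 to 8508 TPM. In bulk libraries, fewer cells of a type and less RNA per cell cannot be told apart. A set of 3 libraries stood apart from their groups: 6419c5 WT replicate 3 and 6694c2 clone B replicate 3 by summed macrophage markers (7818 TPM beside 1268 and 1938 TPM, and 3537 TPM beside 431 and 446 TPM), and 6694c2 clone A replicate 1 by endothelial markers (211 TPM beside 31.2 and 28.7 TPM). These 3 were named without a fixed rule. The 6694c2 WT libraries also spread widely in summed macrophage markers (572, 1784 and 142 TPM) and were all kept. Fits without the 3 libraries therefore still hold 6694c2 WT replicate 3, where Kdm3a was at 67.6 TPM beside 39.9 and 38.9 TPM.

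Kdm3a transcript was lower in the knockout clones of both lines but stayed well above 0. In 6419c5, Kdm3a was at 21.6, 24.6 and 21.6 TPM (clone A), 12.3, 18.8 and 13.5 TPM (clone B) and 38.2, 24.1 and 32.9 TPM (WT). Kdm3a in 6694c2 was at 26.2, 26.4 and 29.8 TPM (clone A), 28.8, 30.2 and 25.2 TPM (clone B) and 39.9, 38.9 and 67.6 TPM (WT). The knockout means were thus 71.2% (6419c5 clone A), 46.9% (6419c5 clone B), 56.3% (6694c2 clone A) and 57.5% (6694c2 clone B) of the WT mean of the line. In 6694c2 the highest knockout library was below the lowest WT library, as for 4.89% of all genes. In 6419c5, clone A replicate 2 lay above WT replicate 2, so the groups overlapped. A gene-level TPM does not say whether the remaining transcripts carry an intact coding sequence.

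The log2 change of Kdm3a, on the log2(TPM + 1) scale used for every change below, was -0.75 in either line (SE 0.18; limma adjusted p = 0.0185 in 6419c5 and 0.0091 in 6694c2, lower in 3 of 3 clone A and 3 of 3 clone B libraries than the WT mean). The difference between the lines' changes was -0.00 (95% interval -0.54 to 0.54). By clone, the fall was largest in 6419c5 clone B (-1.04, adjusted p = 0.00306), and 6419c5 clone A did not pass the test (-0.45, adjusted p = 0.299); clones A and B of 6694c2 were at -0.76 (adjusted p = 0.0172) and -0.73 (adjusted p = 0.0278). The clones of a line share its WT libraries, so their values are set side by side only. The 6419c5 call ended without WT replicate 1 (-0.60, adjusted p = 0.113), without WT replicate 3 (-0.71, adjusted p = 0.0742) and without the 3 libraries that stood apart (-0.71, adjusted p = 0.0982). Both 6694c2 clone calls ended without WT replicate 3, the library at 67.6 TPM: clone A was then at -0.51 (adjusted p = 0.0663) and clone B at -0.48 (adjusted p = 0.0769), whereas the call over both clones held without any 1 library. The clone A call also ended without its replicate 1 or 2 (-0.73, adjusted p 0.051 to 0.0543) and with the macrophage covariate (-0.46, adjusted p = 0.204) or without the 3 libraries that stood apart (-0.73, adjusted p = 0.0693). The 6694c2 clone B call ended without any 1 of its own replicates (-0.79 to -0.66, adjusted p 0.0581 to 0.0868). It ended as well without the 3 libraries (-0.66, adjusted p = 0.116) and with only the 9 libraries of its line (-0.73, adjusted p = 0.0508).

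**Figure D1:**
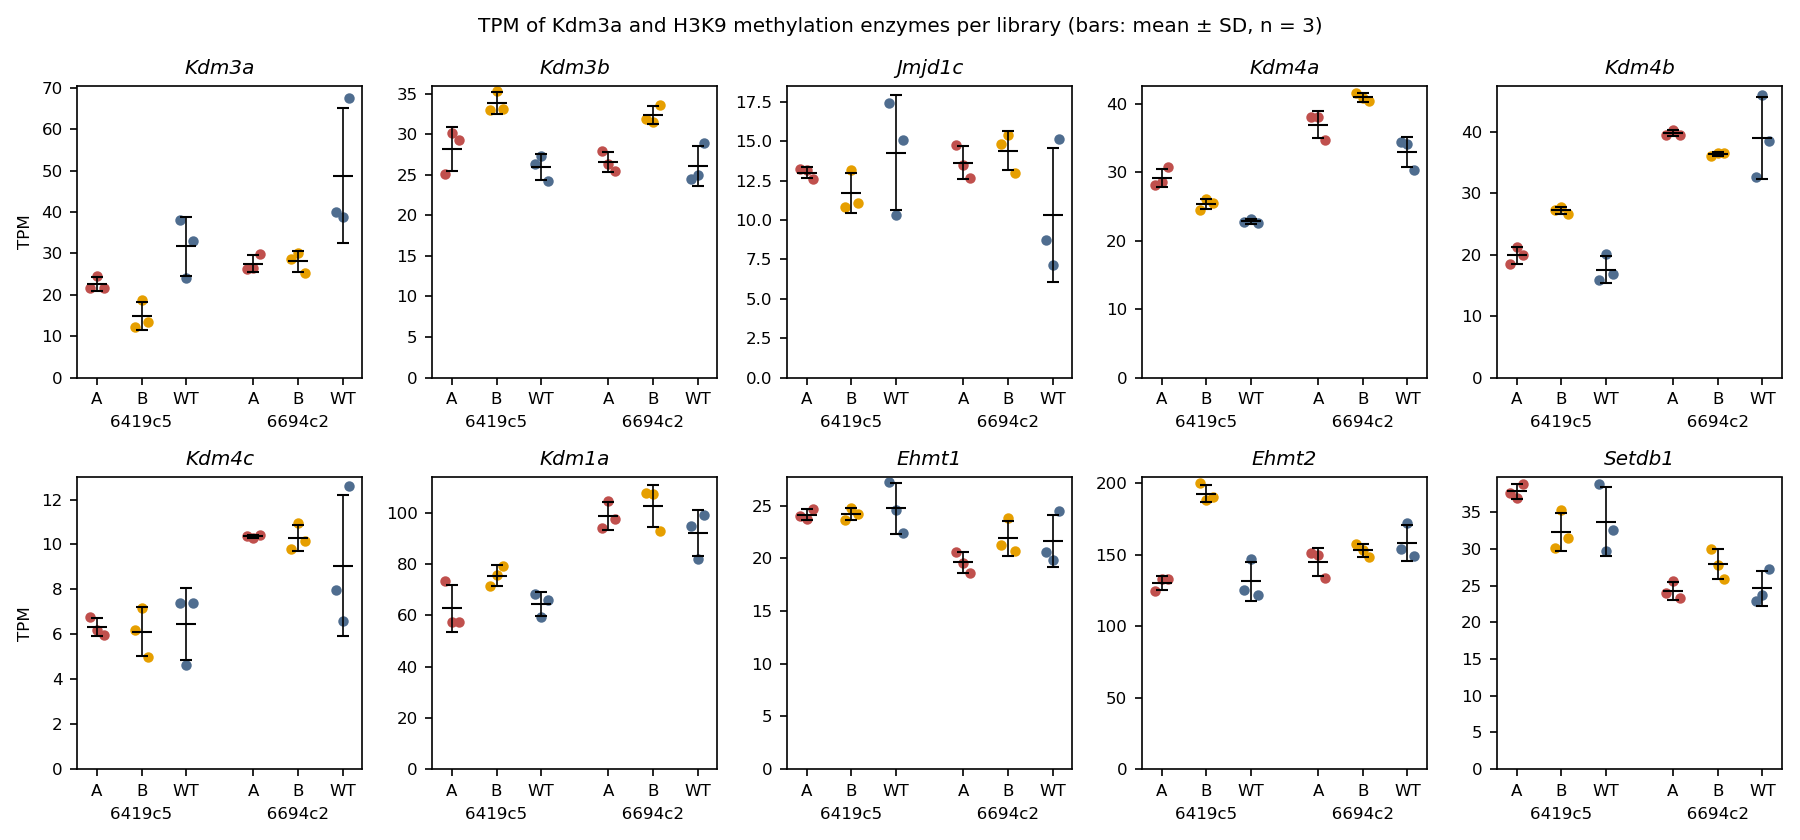
TPM of each of the 10 genes (vertical axes, each starting at 0) in the 3 libraries of clone A, clone B and WT of 6419c5 and of 6694c2; points are libraries and bars the mean ± SD (n = 3). Kdm3a was at 12.3 to 30.2 TPM in knockout and 24.1 to 67.6 TPM in WT libraries, and Ehmt2 was at 188 to 200.01 TPM in 6419c5 clone B against 122 to 147 TPM in 6419c5 WT.

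Across the 10 genes, 4 were called in 6419c5 (Kdm3a lower; Kdm4a, Kdm4b and Ehmt2 higher), where 7.38% of all 13422 genes were called (3.97% higher and 3.4% lower). In 6694c2 there were 2 calls (Kdm3a lower, Kdm4a higher) against 20.4% of all genes (14.7% higher and 5.79% lower), so the share of the 10 genes was that of the background. Over both lines 3 were called (Kdm3a lower, Kdm3b and Kdm4a higher) against 18.4% of all genes (12.5% higher and 5.89% lower). The median change of the 10 was 0.07 in 6419c5, 0.11 in 6694c2 and 0.10 over both lines, beside 0.01, 0.15 and 0.08 over all genes tested. The difference of the knockout change between lines was called for 1 of the 10, Ehmt2, against 8.71% of all genes. In the 6419c5 comparison 4 of 8 tumor epithelial markers were also called lower (median of the 8 -0.51), with Epcam at 146 ± 55.9 TPM (clone A) and 26.8 ± 6.96 TPM (clone B), against 249 ± 20.9 TPM in WT. The part of this in the 6419c5 calls was not tested.

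**Figure D2:**
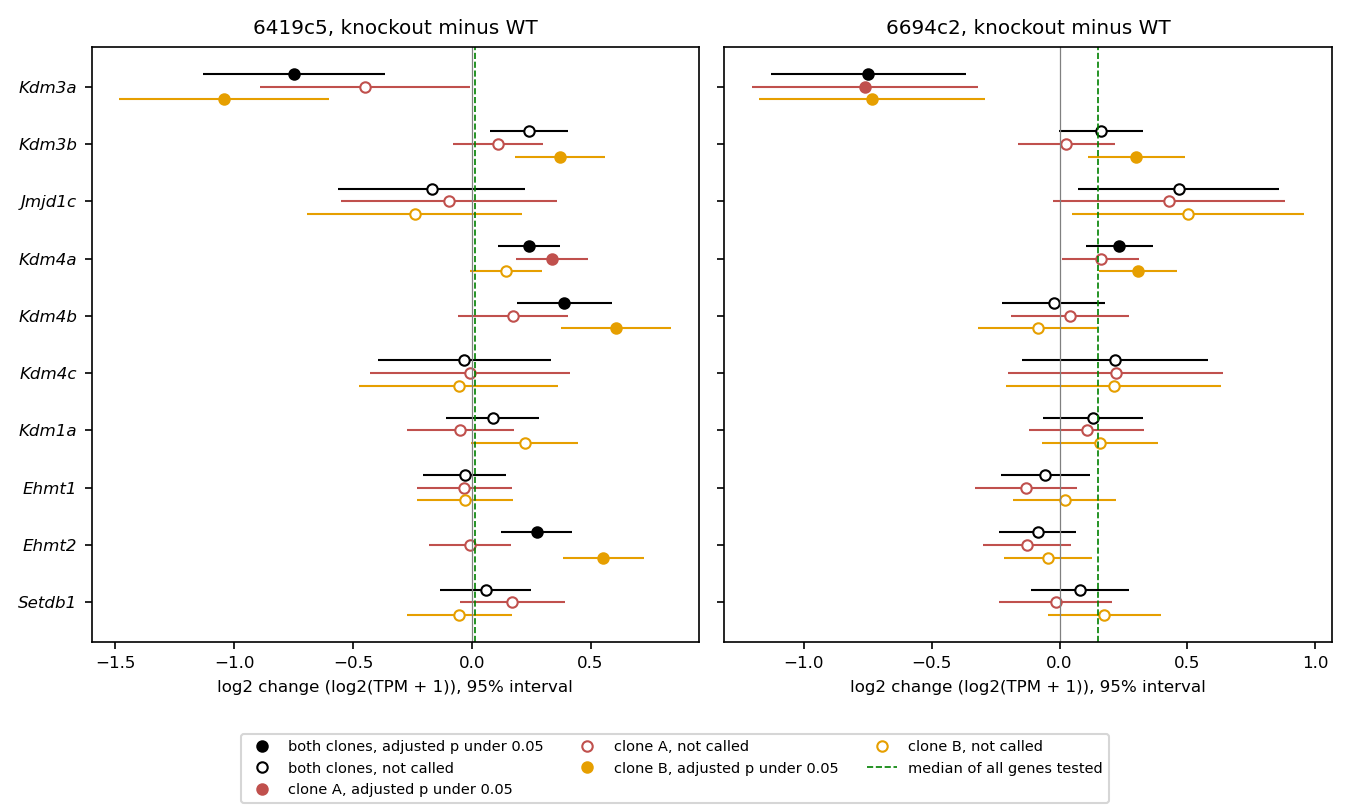
Log2 change, knockout minus WT, with 95% intervals from limma (horizontal axis) of the 10 genes (rows) in 6419c5 (left) and 6694c2 (right), for both clones together, clone A and clone B; filled points have an adjusted p under 0.05 and the dashed line is the median of all genes tested. Kdm3a lies at -0.75 in either line, and Kdm4a at 0.24 in 6419c5 and 0.23 in 6694c2.

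Kdm3b, the closest relative of Kdm3a and also a demethylase of H3K9, was higher in clone B of both lines. In 6419c5 it was at 25.1, 30.1 and 29.3 TPM (clone A), 33.0, 35.3 and 33.1 TPM (clone B) and 26.3, 27.3 and 24.2 TPM (WT). Kdm3b in 6694c2 was at 27.9, 26.4 and 25.4 TPM (clone A), 31.8, 31.5 and 33.6 TPM (clone B) and 24.5, 24.9 and 28.9 TPM (WT). Every clone B library lay above every WT library of its line, as 15.8% (6419c5) and 24% (6694c2) of all genes did, while clone A and WT overlapped in both lines. Clone B was called in 6419c5 (0.37, SE 0.09, adjusted p = 0.00958) and in 6694c2 (0.30, SE 0.09, adjusted p = 0.0348), and clone A in neither (0.11, adjusted p = 0.623, in 6419c5 and 0.03, adjusted p = 0.874, in 6694c2). The background of calls was 18.9% (6419c5 clone B), 14.5% (6694c2 clone B), 4.79% (6419c5 clone A) and 21.7% (6694c2 clone A). Clone B minus clone A was 0.26 in 6419c5 (adjusted p = 0.0423) and 0.27 in 6694c2 (adjusted p = 0.0671), with 26.3% and 9.53% of all genes called. The 6419c5 value was uncalled in 10 of 18 fits without 1 library (0.18 to 0.31 over all 18), with the macrophage covariate (0.24, adjusted p = 0.278) and without the 3 libraries that stood apart (0.26, adjusted p = 0.0526). In that comparison 10 of 10 macrophage and 6 of 9 fibroblast markers were called lower in clone B.

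Over the clones together, the Kdm3b change was 0.24 in 6419c5 (adjusted p = 0.076), 0.16 (adjusted p = 0.145) in 6694c2 and 0.20 over both lines (SE 0.05, adjusted p = 0.0184, limma). The median of all genes in 6694c2 was 0.15 on TPM as deposited, -0.03 with median-of-ratios scaling, -0.04 with quantile normalization and 0.05 with the 20 most abundant genes removed. A single row, Mir6236, held 6.04% to 9.57% of the TPM in the 6694c2 knockout libraries, against 8.57%, 13.1% and 17.4% in WT. Its part in that median was not tested apart from the other removed genes. Relative to that median, Kdm3b in 6694c2 was at 0.01, 0.00, 0.05 and 0.00, and its own sign turned under median-of-ratios scaling (-0.03). The call over both lines ended under the 3 other scalings (0.10 to 0.14, adjusted p 0.168 to 0.328) and without the 3 libraries that stood apart (0.16, adjusted p = 0.0987). The 6694c2 clone B call ended under the same 3 scalings (0.08 to 0.19, adjusted p 0.275 to 0.696), without the 3 libraries (0.27, adjusted p = 0.107) and without WT replicate 1 or 2 or any clone B replicate (0.26 to 0.32, adjusted p 0.0792 to 0.109). The sum of the macrophage markers was 216 to 449 TPM in 6419c5 clone B, against 2400 to 8508 TPM in clone A and 1268 to 7818 TPM in WT of that line; with the mean log2 level of these markers as a covariate, Kdm3b in 6419c5 clone B was at 0.36 (adjusted p = 0.058), and without the 3 libraries at 0.32 (adjusted p = 0.0536).

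Jmjd1c, the remaining KDM3 gene and a JmjC protein related to both, was called in neither line and had its lowest libraries in 6694c2 WT. It was at 12.6 to 13.2 TPM in 6419c5 clone A, 10.9 to 13.2 TPM in clone B and 10.3 to 17.4 TPM in WT. In 6694c2 it was at 14.8, 13.5 and 12.7 TPM (clone A), 14.8, 15.4 and 13.0 TPM (clone B) and 8.72, 7.14 and 15.2 TPM (WT), so WT replicates 1 and 2 lay below every knockout library and WT replicate 3 did not. The change in 6694c2 was 0.47 (95% interval 0.07 to 0.86), which did not pass the adjusted threshold (adjusted p = 0.0859, limma). Without WT replicate 3 it was 0.75 (adjusted p = 0.00453), and with the macrophage marker level as a covariate 0.68 (adjusted p = 0.0208). In 6419c5 the change was -0.17 (95% interval -0.56 to 0.22, adjusted p = 0.724), and the difference between lines was 0.63 (adjusted p = 0.147).

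Shares within the KDM3 subfamily do not depend on how a library is scaled. They have a fixed sum, so a lower Kdm3a share by itself raises the joint share of Kdm3b and Jmjd1c. A higher share therefore does not show that a transcript rose. Kdm3a made up 35.4 ± 1.23% of the summed TPM of Kdm3a, Kdm3b and Jmjd1c in 6419c5 clone A and 24.4 ± 3.18% in clone B, against 43.7 ± 4.12% in WT (SD, n = 3 each). In 6694c2 its share was 40.6 ± 2.99% in clone A and 37.5 ± 2.09% in clone B, against 56.7 ± 3.36% in WT. The ranges of the shares did not overlap between knockout and WT in either line: at most 36.2% in 6419c5 knockouts against at least 39.0% in WT, and at most 43.9% in 6694c2 knockouts against at least 54.6% in WT. Kdm3b carried the largest mean share in the knockouts of 6419c5 (44.1 ± 2.17% in clone A and 56.2 ± 3.34% in clone B, against 36.6 ± 6.67% in WT). Its log2 change in 6419c5 clone A did not pass the test (0.11, limma adjusted p = 0.623). In 6694c2 the Kdm3b share was 39.2 ± 1.62% in clone A and 43.3 ± 3.09% in clone B, against 31.5 ± 4.92% in WT. It was thus the largest mean share in 6694c2 clone B as well. The share of Jmjd1c in 6694c2 was 20.1 ± 1.39% in clone A and 19.2 ± 0.996% in clone B, against 11.9 ± 1.76% in WT, and in 6419c5 it was 19.4% to 20.5% in the mean of every group.

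The summed TPM of the 3 KDM3 genes was 63.7 ± 4.004 in 6419c5 clone A and 60.4 ± 6.09 in clone B, against 72.0 ± 10.1 in WT. In 6694c2 it was 67.7 ± 1.36 in clone A and 74.8 ± 2.72 in clone B, against 85.3 ± 22.9 in WT. The sum of Kdm3b and Jmjd1c alone was 41.2 ± 2.59 TPM (clone A) and 45.6 ± 2.61 TPM (clone B) in 6419c5, against 40.3 ± 3.17 TPM in WT, and 40.2 ± 2.33 TPM (clone A) and 46.7 ± 0.184 TPM (clone B) in 6694c2, against 36.5 ± 6.65 TPM in WT. These sums are given without a test, since a score over chosen genes has none here.

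**Figure D3:**
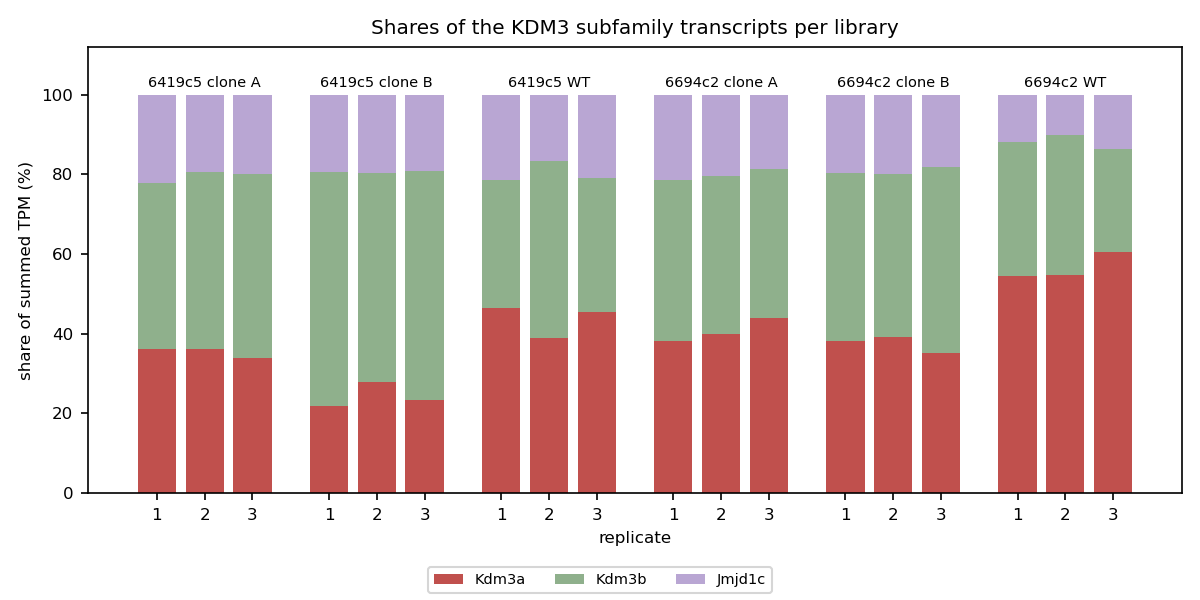
Share (%) of Kdm3a, Kdm3b and Jmjd1c in their summed TPM (vertical axis) for each of the 18 libraries, grouped by clone and WT of each line. The Kdm3a share is 24.4% on average in 6419c5 clone B and 56.7% in 6694c2 WT, the lowest and highest group.

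Kdm4a, a demethylase of trimethylated H3K9 and H3K36, was the only one of the 10 genes higher in the knockouts of both lines with no overlap of libraries. In 6419c5 it was at 28.2, 28.5 and 30.7 TPM (clone A), 24.5, 26.0 and 25.5 TPM (clone B) and 22.7, 23.2 and 22.6 TPM (WT). The 6694c2 libraries held 38.0, 38.0 and 34.7 TPM of Kdm4a (clone A), 41.6, 40.8 and 40.4 TPM (clone B) and 34.4, 34.1 and 30.4 TPM (WT). All 6 knockout libraries lay above all 3 WT libraries in each line, as 4.6% (6419c5) and 13.2% (6694c2) of all genes did. The change was 0.24 in 6419c5 (SE 0.06, adjusted p = 0.0244), 0.23 in 6694c2 (SE 0.06, adjusted p = 0.0147) and 0.24 over both lines (SE 0.04, adjusted p = 0.00137, limma), and a 2-sided exact permutation test over 84 arrangements gave p = 0.0238 and 0.0119, the second being the smallest such a design can give. Clone A was called in 6419c5 (0.34, adjusted p = 0.00988) and clone B in 6694c2 (0.31, adjusted p = 0.0091). The 6419c5 clone A call ended without its replicate 3 (0.30, adjusted p = 0.061), with median-of-ratios scaling (0.27, adjusted p = 0.184), with quantile normalization (0.29, adjusted p = 0.134) and with only the 9 libraries of the line (0.34, adjusted p = 0.0514). The 6694c2 clone B call of Kdm4a ended with median-of-ratios scaling (0.08, adjusted p = 0.665), with quantile normalization (0.16, adjusted p = 0.349), with the 20 most abundant genes removed (0.20, adjusted p = 0.10) and with only the 9 libraries (0.31, adjusted p = 0.0563). The 6419c5 clone B was at 0.15 (adjusted p = 0.177) and 6694c2 clone A at 0.16 (adjusted p = 0.122).

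In 6419c5 the Kdm4a value relative to the median of all genes was 0.23 under each of the 4 scalings, while its adjusted p was 0.151, 0.124 and 0.0535 under the 3 other scalings. That call also ended without any 1 of WT replicates 1, 2 or 3, clone A replicate 3 or clone B replicate 3 (0.22 to 0.25, adjusted p 0.0527 to 0.0863), and without the 3 libraries that stood apart (0.24, adjusted p = 0.104). In 6694c2, Kdm4a relative to the median was 0.08 on TPM as deposited, 0.07 with median-of-ratios scaling, 0.16 with quantile normalization and 0.07 with the 20 most abundant genes removed, and the call ended under those 3 (adjusted p 0.197 to 0.812), without WT replicate 3 (0.18, adjusted p = 0.0573) and without the 3 libraries (0.23, adjusted p = 0.0509). In 6694c2, markers of other cells were also higher in the knockouts: 4 of 4 tested T and NK cell markers, 5 of 6 neutrophil, 5 of 9 fibroblast, 3 of 7 endothelial and 1 of 10 macrophage markers were called higher, and 3 of 8 tumor epithelial markers lower; the summed macrophage markers were 3405 to 6472 TPM in clone A, 431 to 3537 TPM in clone B and 142 to 1784 TPM in WT. With the macrophage marker level as a covariate the Kdm4a calls in both lines held, and the part of the other markers was not tested.

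Kdm4b, a KDM4 relative that is also known as a hypoxia target, was higher in 6419c5 clone B. It was at 18.5, 21.2 and 19.98 TPM (6419c5 clone A), 27.2, 27.8 and 26.7 TPM (clone B) and 15.9, 20.1 and 16.9 TPM (WT), so clone B stood above all other libraries of the line and clone A overlapped WT. For 15.8% of all genes every clone B library of this line lay above every WT library. Clone B was at 0.61 over WT (SE 0.11, adjusted p = 0.00142) and at 0.44 over clone A (adjusted p = 0.00838), and clone A at 0.17 (adjusted p = 0.497). The background of calls was 18.9% (clone B against WT), 26.3% (clone B against clone A) and 4.79% (clone A against WT). In clone B 8 of 10 macrophage markers were also called lower than in WT, and 10 of 10 lower than in clone A. In 6694c2 Kdm4b was at 39.5, 40.4 and 39.6 TPM (clone A), 36.1, 36.6 and 36.5 TPM (clone B) and 32.6, 46.0 and 38.6 TPM (WT). WT spanned both clones there, with a change of -0.02 (95% interval -0.22 to 0.18, adjusted p = 0.89). The change over the clones of 6419c5 was 0.39 (SE 0.09, adjusted p = 0.0189), and the call ended without WT replicate 1 (0.32, adjusted p = 0.112), without WT replicate 3 (0.36, adjusted p = 0.0781), under the 3 other scalings (0.37, adjusted p 0.0642 to 0.0973) and without the 3 libraries (0.36, adjusted p = 0.109), whereas the clone B call held under every alternative run. The difference between the lines was -0.41 (adjusted p = 0.0699).

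Kdm4c, the least abundant of the 10 genes, was at 4.61 to 7.39 TPM over the 9 libraries of 6419c5 and at 6.60 to 12.6 TPM over those of 6694c2. Its change was -0.03 in 6419c5 (95% interval -0.40 to 0.33) and 0.22 in 6694c2 (95% interval -0.15 to 0.58), and it was called in neither. Kdm4c in 6694c2 WT was at 7.98, 6.60 and 12.6 TPM, with replicate 3 highest, as for Kdm3a and Jmjd1c. Kdm1a, the second most abundant gene, was at 57.4 to 79.4 TPM in 6419c5 and 82.0 to 108 TPM in 6694c2. Its change was 0.09 in 6419c5 (95% interval -0.11 to 0.28) and 0.13 in 6694c2 (95% interval -0.06 to 0.33), with adjusted p of 0.709 and 0.323 (limma). With the macrophage marker level as a covariate, Kdm1a in 6694c2 was at 0.26 and passed the test (adjusted p = 0.0419).

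Ehmt2, the catalytic partner in the G9a complex and the most abundant of the 10 genes, was higher in 6419c5 clone B. It was at 125, 133 and 133 TPM (6419c5 clone A), 200.01, 188 and 190.4 TPM (clone B) and 126, 147 and 122 TPM (WT). The 3 clone B libraries stood above all other libraries of the series, and clone A lay within the WT range. In 6419c5, 15.8% of all genes had every clone B library above every WT library. Clone B averaged 193 ± 6.25 TPM and clone A 130.5 ± 4.999 TPM, against 131 ± 13.6 TPM in WT (SD, n = 3 each). Clone B was called over WT (0.55, SE 0.08, adjusted p = 2.76e-04) and over clone A (0.56, SE 0.08, adjusted p = 2.26e-04), and both calls held under every alternative run, the macrophage covariate included. In these comparisons 18.9% and 26.3% of all genes were called, and 8 of 10 and 10 of 10 macrophage markers were called lower in clone B. Clone A was at -0.01 (95% interval -0.18 to 0.17).

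The change over both 6419c5 clones, 0.27 (adjusted p = 0.0256, limma), lay in clone B and not in clone A; a 2-sided exact permutation test of the 6 knockout against the 3 WT libraries gave p = 0.238. That call ended under the 3 other scalings (0.24 to 0.26, adjusted p 0.116 to 0.216), without the 3 libraries (0.22, adjusted p = 0.155), and without WT replicate 1 or 3, clone A replicate 2 or 3, or clone B replicate 1 (0.22 to 0.27, adjusted p 0.05 to 0.135). In 6694c2 Ehmt2 was at 151, 149.9 and 134 TPM (clone A), 157, 153 and 148 TPM (clone B) and 154, 172 and 149 TPM (WT), with overlapping groups and a change of -0.09 (95% interval -0.24 to 0.06). The difference of the knockout change, 6694c2 minus 6419c5, was -0.36 (SE 0.10, adjusted p = 0.0352), and was uncalled without the 3 libraries (-0.31, adjusted p = 0.144) and in 10 of 18 fits without 1 library (-0.44 to -0.30 over all 18). It was also uncalled with the macrophage covariate (-0.39, adjusted p = 0.0522).

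Of the other methyltransferases, Ehmt1, the partner of Ehmt2, was at 22.4 to 27.2 TPM in 6419c5 and 18.6 to 24.5 TPM in 6694c2, with changes of -0.03 (95% interval -0.20 to 0.14) and -0.06 (95% interval -0.23 to 0.12). Under median-of-ratios scaling Ehmt1 passed the test in 6694c2 (-0.25, adjusted p = 0.0327). Setdb1, which silences retroelements together with Trim28, was at 37.0 to 38.9 TPM in 6419c5 clone A, 30.2 to 35.3 TPM in clone B and 29.6 to 38.8 TPM in WT. Setdb1 in 6694c2 was at 23.3 to 25.6 TPM in clone A, 25.9 to 30.0 TPM in clone B and 22.8 to 27.3 TPM in WT. Its changes were 0.06 (95% interval -0.13 to 0.25) in 6419c5 and 0.08 (95% interval -0.11 to 0.27) in 6694c2.

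The log2 ratio of the 3 methyltransferases' summed TPM to that of the 7 demethylases was 0.36 ± 0.09 in 6419c5 clone B, 0.08 ± 0.08 in clone A and 0.05 ± 0.18 in WT (SD, n = 3). For 6694c2 it was -0.39 ± 0.02 in clone B, -0.43 ± 0.08 in clone A and -0.33 ± 0.20 in WT. All 9 libraries of 6694c2 lay below 0. The 6419c5 WT libraries lay at -0.03, 0.25 and -0.07, so their mean above 0 rested on replicate 2. The 3 libraries of 6419c5 clone B, with the highest Ehmt2, lay highest.

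**Figure D4:**
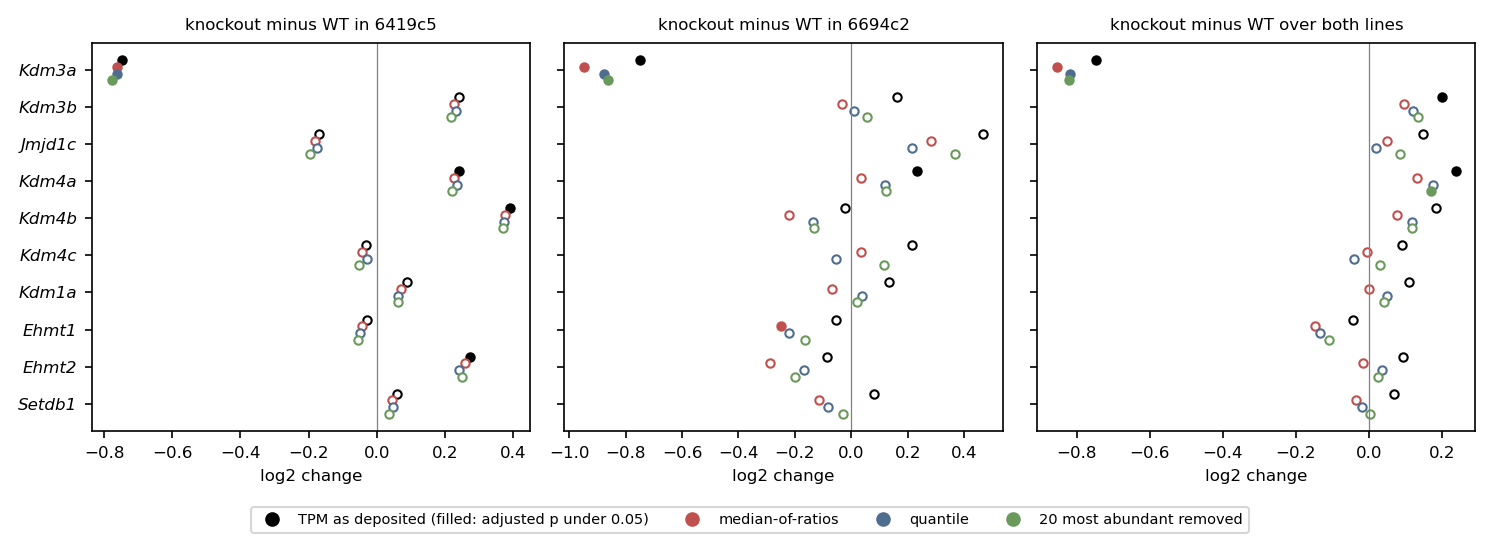
Log2 change, knockout minus WT (horizontal axis), of the 10 genes (rows) in 6419c5, 6694c2 and over both lines, on TPM as deposited and under 3 other scalings; filled points have a limma adjusted p under 0.05. Kdm3a is filled in all panels and scalings, and Kdm4a in 6694c2 lies at 0.23 on TPM as deposited and 0.04 with median-of-ratios scaling.

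Without any knockout, the lines also differed in some of these genes, in a comparison that called many genes of the whole table. In 6694c2 WT against 6419c5 WT, 5 of the 10 were called higher and 1 lower, where 46.3% of all genes were called (14.1% higher and 32.2% lower). Kdm4b differed most, at 32.6 to 46.0 TPM in 6694c2 WT and 15.9 to 20.1 TPM in 6419c5 WT (1.10, SE 0.11, adjusted p = 1.34e-06). Kdm4a (0.51, adjusted p = 3.62e-05), Kdm1a (0.50, adjusted p = 0.00128), Kdm3a (0.58, adjusted p = 0.0318) and Ehmt2 (0.27, adjusted p = 0.0135) were also higher in 6694c2 WT. Setdb1 was lower in 6694c2 WT (-0.43, adjusted p = 0.00311). Kdm3b was at 24.5 to 28.9 TPM in 6694c2 WT and 24.2 to 27.3 TPM in 6419c5 WT, a difference of 0.01 (95% interval -0.18 to 0.20). The Kdm3a call ended without 6694c2 WT replicate 3 (0.33, adjusted p = 0.154), without 6419c5 WT replicate 2 (0.40, adjusted p = 0.139) and without 6419c5 WT replicate 3 (0.62, adjusted p = 0.0523), and the Ehmt2 call without 6419c5 WT replicate 1 or 3 or 6694c2 WT replicate 2 (0.21 to 0.24, adjusted p 0.0508 to 0.0645). The Kdm3a call ended, too, with the macrophage covariate (0.36, adjusted p = 0.209), and both calls ended without the 3 libraries that stood apart (0.62, adjusted p = 0.0708, for Kdm3a and 0.22, adjusted p = 0.0802, for Ehmt2). The median of all genes in this comparison was -0.22, and 5 of 10 macrophage markers were called lower in 6694c2 WT. Kdm4c (0.41, adjusted p = 0.102) was called with median-of-ratios scaling (0.61, adjusted p = 0.00609).

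Ordered by mean TPM over the 18 libraries, the genes ran Ehmt2 (152), Kdm1a (82.8), Kdm4a (31.3), Setdb1 (30.1), Kdm4b (30.0), Kdm3a (28.9), Kdm3b (28.8), Ehmt1 (22.7), Jmjd1c (12.9) and Kdm4c (8.10). The 5 genes between 28.8 and 31.3 TPM were not separated by their ranges over libraries. Kdm3a varied most between groups, 3.28-fold between its highest group mean (6694c2 WT) and its lowest (6419c5 clone B), followed by Kdm4b at 2.26-fold. Kdm3b and Ehmt1 varied least, at 1.3-fold and 1.26-fold. Within groups, the largest coefficients of variation of Kdm3a (33.4%), Jmjd1c (41.1%) and Kdm4c (34.6%) were all in 6694c2 WT.

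Correlations between the genes over the 18 libraries, given as descriptions since libraries of a group and line share their source and scaling, mostly followed the lines. The highest was between Kdm4b and Kdm1a (Pearson r = 0.83, Spearman rho = 0.76) and the lowest between Kdm4b and Setdb1 (r = -0.84, rho = -0.83). After centring on each line, Kdm3a ran against Kdm4b (r = -0.60), Ehmt2 (-0.58), Kdm4a (-0.55) and Kdm3b (-0.54). After centring on each group, which leaves only the spread between libraries of a group, Kdm3a ran with Jmjd1c (0.90), Kdm4c (0.86) and Setdb1 (0.79), and Jmjd1c with Kdm4c (0.92). For all of these genes 6694c2 WT replicate 3 was the highest library of its group, and 6419c5 WT replicate 2 the lowest. In 6694c2 WT, replicate 3 held 67.6 TPM of Kdm3a beside 39.9 and 38.9 TPM. Atrx (14.5 ± 12.6 TPM) and Cbx3 (219 ± 125 TPM) also spread widely there, and Cbx1 (76.3 ± 0.350 TPM) did not. Of the 45 pairs, 15 had a group-centred r above 0.5 and 6 below -0.5. The part of these libraries in the r values was not tested, nor were group-centred r values of other gene pairs.

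**Figure D5:**
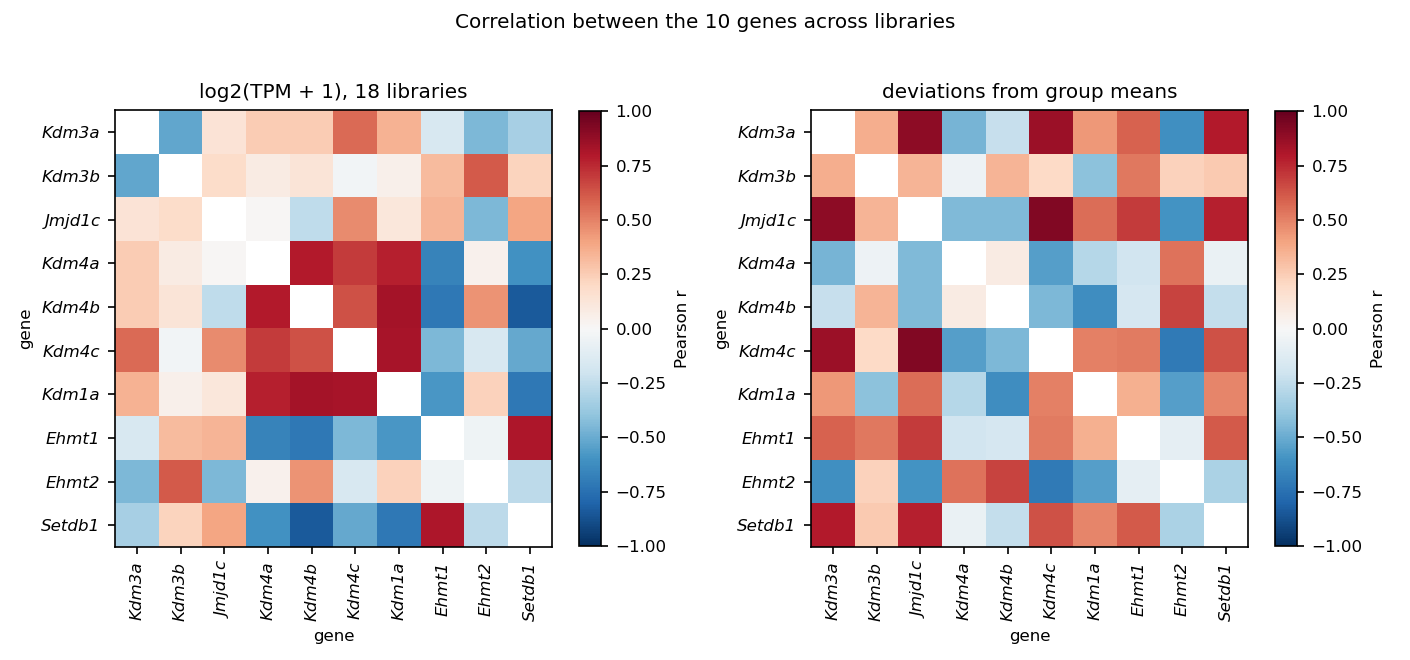
Pearson r between each pair of the 10 genes over 18 libraries (colour, from -1 to 1), on log2(TPM + 1) values (left) and on their deviations from group means (right). On the left Kdm4a, Kdm4b, Kdm4c and Kdm1a form a block of positive values, and on the right Kdm3a, Jmjd1c, Kdm4c and Setdb1 do, with Jmjd1c and Kdm4c at 0.92. The part of single libraries in the values on the right was not tested.

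Genes among the 5 most like Kdm3a in the line-centred values over 18 libraries, out of 10520 genes averaging 5 TPM or more, were Cttnbp2nl (r = 0.94), Pitpnc1 (0.93), Mcpt2 (0.90) and Dsc2 (0.88). Leaving out the 2 libraries whose Kdm3a level lay farthest from the mean of their line (6694c2 WT replicate 3 and 6419c5 WT replicate 1) gave 0.88, 0.91, 0.90 and 0.88 in the same order. Dsc2 passed the 5 TPM filter through 6419c5 alone (group means 18.8 to 33.8 TPM). In 6694c2 its group means were near the floor (0.0194 to 0.461 TPM), so its likeness there says little. Pitpnc1 was at 7.30 ± 1.56 TPM (6419c5 clone A) and 4.89 ± 0.723 TPM (clone B), against 13.2 ± 2.03 TPM in WT, and at 13.3 ± 0.388 TPM (6694c2 clone A) and 12.3 ± 1.74 TPM (clone B), against 23.3 ± 3.35 TPM in WT (SD, n = 3 each). None of the other 9 genes was near these: the highest line-centred r with Kdm3a was that of Ehmt1 (0.42). Kdm3a and the mean level of the 8 tumor epithelial markers had a line-centred r of 0.80 but r = -0.07 over the uncentred libraries and -0.24 after centring on groups.

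Kdm3a also ran with the mean log2 level of 12 hypoxia response genes over the 18 libraries (r = 0.70, rho = 0.76; 0.60 centred on lines and 0.50 centred on groups). Uncentred, Kdm4b (0.82), Kdm1a (0.72), Kdm4a (0.69) and Kdm4c (0.69) ran with that level too. Setdb1 (-0.80) and Ehmt1 (-0.70) ran against it, and Kdm3b, Jmjd1c and Ehmt2 lay at -0.35, -0.21 and -0.00. The lines themselves differed: 11 of the 12 genes were called higher in 6694c2 WT than in 6419c5 WT (median 1.11), where 14.1% of all genes were. The hypoxia level was 6.21 to 6.32 in 6694c2 clone A and 5.88 to 5.96 in clone B, against 6.41 to 6.64 in WT, so all 6 knockout libraries lay below all 3 WT libraries. In 6419c5 it was 5.33 to 5.58 in clone A and 5.17 to 5.35 in clone B, against 5.28 to 5.46 in WT, with overlap. Of the 12 genes, 0 rose and 6 fell in 6694c2 (median -0.33 beside 0.15 for all genes), where 14.7% of all genes were called higher and 5.79% lower. In 6419c5, 2 rose and 0 fell (median -0.10 beside 0.01), where 3.97% were called higher and 3.4% lower. Over both lines 0 rose and 5 fell (median -0.17 beside 0.08), where 12.5% were called higher and 5.89% lower. By clone in 6694c2, 0 rose and 3 fell in clone A (median -0.07 beside 0.11), where 21.7% of all genes were called. In 6694c2 clone B 0 rose and 7 fell (median -0.46 beside 0.18), where 14.5% were called. By clone in 6419c5, 2 rose and 1 fell in clone A, where 4.79% of all genes were called, and 2 rose and 3 fell in clone B, where 18.9% were. The markers of other cells that were higher in the 6694c2 knockouts moved in the same comparison, and their part in these values was not tested.

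Ak4, a mitochondrial adenylate kinase, fell in 6694c2 to 1.42 ± 0.208 TPM (clone A) and 0.617 ± 0.326 TPM (clone B), against 6.08 ± 0.332 TPM in WT (-1.85, adjusted p = 1.71e-07). Car9, a carbonic anhydrase, was at 107 ± 22.3 TPM (clone A) and 87.8 ± 8.38 TPM (clone B), against 215 ± 16.5 TPM in WT (-1.15, adjusted p = 7.58e-06). Adm, which encodes a vasodilator peptide, was at 40.3 ± 7.64 TPM in 6694c2 clone A, 12.8 ± 1.62 TPM in clone B and 41.0 ± 9.92 TPM in WT (-0.80, adjusted p = 0.00539), so clone B alone stood below WT. Slc2a1, the glucose transporter GLUT1, was at 329.9 ± 53.5 TPM (clone A) and 266 ± 19.6 TPM (clone B), against 407 ± 74.0 TPM in WT (-0.45, adjusted p = 0.0114), a call that ended without WT replicate 2 (-0.31, adjusted p = 0.0729). The 2 that rose in 6419c5, named after their values were seen, were Ndrg1 (0.50, adjusted p = 0.00169) and Egln3 (0.36, adjusted p = 0.0385); Ndrg1 fell in 6694c2 (-0.71, adjusted p = 3.31e-05), and its difference between lines was -1.20 (adjusted p = 2.88e-05). Clone B carried the Ndrg1 rise in 6419c5, with 350.2 ± 28.8 TPM (clone A) and 566 ± 6.12 TPM (clone B), against 315 ± 15.4 TPM in WT (clone A 0.15, adjusted p = 0.52). The Egln3 call ended under the 3 other scalings (0.34, adjusted p 0.0893 to 0.106) and in 10 of the 18 fits without 1 library, and without the 3 libraries (0.33, adjusted p = 0.0794).

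Other genes of the H3K9 pathway were also counted. Of 42 genes in 6 lists (other methyltransferases, partners of G9a and SETDB1, readers of methylated H3K9 and silencing complexes, other H3K9 demethylases, LSD1 partners and JmjC demethylases of other lysines), 39 were tested; Prdm16 and Kdm4d were below the filter, and no row had the symbol Tasor. In 6419c5, 0 rose and 1 fell, in 6694c2 2 rose and 1 fell, and over both lines 0 rose and 1 fell, with medians of -0.01, 0.09 and -0.01 beside 0.01, 0.15 and 0.08 for all genes. In these comparisons 7.38%, 20.4% and 18.4% of all genes were called. Calls among the 39 in 6694c2 (3) numbered 8 with median-of-ratios scaling, 7 with quantile normalization and 11 with the macrophage covariate. The calls were Hr and Phf2 among 4 other H3K9 demethylases and Hdac1 and Hmg20b among 8 LSD1 partners.

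Hr, a JmjC corepressor known from hair follicle biology, fell in 6419c5 to 6.98 ± 2.15 TPM (clone A) and 4.26 ± 0.775 TPM (clone B), against 13.9 ± 2.73 TPM in WT (-1.22, SE 0.18, adjusted p = 4.60e-04). In 6694c2 Hr was at 12.4 ± 2.65 TPM (clone A) and 14.5 ± 1.09 TPM (clone B), against 14.5 ± 1.48 TPM in WT (-0.11, adjusted p = 0.704), and the difference between lines was 1.11 (adjusted p = 0.0137). Phf2, another JmjC demethylase, was at 18.9 ± 1.12 TPM (6694c2 clone A) and 18.8 ± 0.542 TPM (clone B), against 25.1 ± 3.04 TPM in WT (-0.39, adjusted p = 0.014), a call that ended without WT replicate 2 (-0.34, adjusted p = 0.0646) or 3 (-0.33, adjusted p = 0.0529). The LSD1 partners Hdac1 (0.35, adjusted p = 0.00932) and Hmg20b (0.30, adjusted p = 0.0379) rose in 6694c2. With median-of-ratios scaling these calls ended (0.14, adjusted p = 0.24, for Hdac1 and 0.10, adjusted p = 0.628, for Hmg20b), and the Hmg20b call also ended without the 3 libraries (0.31, adjusted p = 0.0568) and in 7 of 18 fits without 1 library.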

How the data were processed

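RNA sequencing values of 18 libraries in 6 groups of 3 were used. The authors deposited TPM per gene symbol, made with Salmon on mm10 according to the submitters' processing notes; the version, the annotation and how transcripts were summed are not given in the sources used here. A batch is named in the table's own title and is not explained. Table columns letter the clones A and B, read as KO1 and KO2 of the sample titles. A total of 13422 genes passed a filter of 1 TPM on the mean and were fitted as log2(TPM + 1), which understates changes of low genes, with limma 3.58.1 in R 4.3.3 (6 group means, 12 residual degrees of freedom, empirical Bayes with mean-variance trend). Called means a Benjamini-Hochberg adjusted p under 0.05 over all of them. On simulated data for the 6419c5 contrast, 84% of 100 genes changed by 1 on the log2(TPM + 1) scale and 94% of 100 changed by 2 were recovered. Unchanged genes made up 4.3% of the calls. The simulation gave the clones of a line the same change and no difference between them. Changes as small as most of those reported here were not simulated, so these rates do not carry over to them.

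Members, gene lists and tests were chosen with earlier results of these data known. The 10 genes are always named; from each list at most 4 called genes with the largest change over both lines, then in either line, are named; those most like Kdm3a are the 5 with the highest line-centred r, of which 1 is not reported here. Alternatives were a pseudocount of 0.1, other filters and scalings, moderation settings, a replicate block, a macrophage covariate, fits per line, exact permutation tests and fits without libraries.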

Additional observations from a re-analysis of the deposited data

Results flagged for a closer look

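The knockout change differed between the lines, by a test of the difference itself (limma, 6694c2 minus 6419c5), for 6 of the genes named in the report. Ehmt2 was at -0.09 in 6694c2 and 0.27 in 6419c5 (difference -0.36, adjusted p = 0.0352), a difference that 6419c5 clone B carried, since clone A was at -0.01. The Ehmt2 difference was uncalled with the macrophage covariate (-0.39, adjusted p = 0.0522) and with quantile normalization (-0.41, adjusted p = 0.0565). It was also uncalled without the mean-variance trend (-0.36, adjusted p = 0.0586), without the 3 libraries that stood apart (-0.31, adjusted p = 0.144) and in 10 of 18 fits without 1 library. Hr was at -0.11 in 6694c2 and -1.22 in 6419c5 (difference 1.11, adjusted p = 0.0137), which was uncalled with quantile normalization (0.88, adjusted p = 0.0515) and with the macrophage covariate (0.95, adjusted p = 0.0539). Hdac1 was at 0.35 in 6694c2 and -0.06 in 6419c5 (difference 0.41, adjusted p = 0.0439), which was uncalled with median-of-ratios scaling (0.22, adjusted p = 0.258), with the 20 most abundant genes removed (0.32, adjusted p = 0.0505), without the mean-variance trend (0.41, adjusted p = 0.0631), without the 3 libraries that stood apart (0.44, adjusted p = 0.0911) and in 13 of 18 fits without 1 library. Of the hypoxia genes, Ak4 (difference -1.74), Car9 (-1.51) and Ndrg1 (-1.20) had changes of -1.85, -1.15 and -0.71 in 6694c2, against -0.11 (adjusted p = 0.756), 0.36 (adjusted p = 0.0869) and 0.50 (adjusted p = 0.00169) in 6419c5, in the same order. Within 6419c5 the clones of Ak4 lay on either side of WT, at 0.995 ± 0.175 TPM (clone A) and 3.88 ± 0.415 TPM (clone B), against 2.37 ± 0.267 TPM in WT.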

How the results depend on the processing

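No value of the 10 genes that was called, on TPM as deposited or under an alternative, turned its direction: of 3290 alternative values, 3124 kept their side of the threshold, 129 lost it and 37 gained it, and 139 turned sign while uncalled in both. Kdm3a stayed called in 6694c2 and over both lines under all alternatives run; in 6419c5 it was at -0.71 (adjusted p = 0.0982) without the 3 libraries that stood apart, and at -0.93 to -0.60 without 1 library, uncalled in 2 of 18 fits. Of the 10 genes, those called in 6419c5 (4) numbered 1 with median-of-ratios scaling, 1 with quantile normalization, 1 with the 20 most abundant genes removed, 2 with only the 9 libraries of the line, 0 without the 3 libraries (4 at an unadjusted p under 0.05, limma), and 0 to 5 without 1 library, with 0 without WT replicate 1 or 3 (5 unadjusted). In 6694c2 (2), they numbered 1 with quantile normalization, with the 20 genes removed, with only the 9 libraries and without the 3 libraries, and 4 with the macrophage covariate. Over both lines (3), they numbered 1 with median-of-ratios scaling and 1 with quantile normalization. For the difference between lines (1), they numbered 2 with median-of-ratios scaling, 0 with quantile normalization (2 unadjusted), 0 without the mean-variance trend (3 unadjusted), 0 without the 3 libraries (2 unadjusted), and 0 to 2 without 1 library; the Ehmt2 difference was -0.44 to -0.30 without 1 library, uncalled in 10 of 18 fits.

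Of the 39 pathway genes, those called in 6419c5 (1) numbered 2 without the 3 libraries and 1 to 2 without 1 library. In 6694c2 (3), they numbered 8 with median-of-ratios scaling, 7 with quantile normalization, 11 with the macrophage covariate, and 2 to 9 without 1 library. Over both lines (1), they numbered 2 with no filter, with a mean of at least 5 TPM, with the 20 genes removed and without the 3 libraries, 4 with median-of-ratios scaling, 3 with quantile normalization, 4 with the covariate, and 1 to 3 without 1 library. For the difference between lines (2), they numbered 7 with median-of-ratios scaling, 1 with the 20 genes removed, 1 without the trend, 5 with the covariate, 1 without the 3 libraries, and 1 to 2 without 1 library. The cause of these shifts was not tested. Of the calls over all genes in 6694c2, 71.7% were higher on TPM as deposited, 36.3% with median-of-ratios scaling, 36% with quantile normalization and 52.7% with the 20 genes removed.

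Replicate numbers showed no pairing in the median: the median correlation of same-numbered libraries' deviations was -0.04, against 0.02 for other numbers. The 45 same-numbered pairs ran from -0.39 to 0.48, with 15 above 0.1. A median cannot show whether some groups shared a batch. With the replicate block, Kdm3a was at -0.75 in 6419c5 (adjusted p = 0.0323), the 10 genes gave 4 calls over both lines and 2 for the difference between lines, and the pathway genes gave 2 over both lines. Depth is unknown, so counting error at low TPM cannot be separated from the spread between libraries.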

Other observations

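Compared with WT clone by clone, other genes of the H3K9 pathway were called beside the 10. Of the 39 tested, 3 rose and 1 fell in 6419c5 clone B and 3 rose and 1 fell in 6694c2 clone B, where 18.9% and 14.5% of all genes were called. In 6419c5 clone A 0 rose and 1 fell, and in 6694c2 clone A 1 rose and 4 fell, where 4.79% and 21.7% of all genes were called. Atf7ip, a partner of SETDB1, was at 21.4 ± 0.0948 TPM in 6419c5 clone B, against 15.8 ± 0.519 TPM in WT (0.41, limma adjusted p = 0.00571). Mecom, a PRDM family protein, was at 39.3 ± 1.62 TPM in 6694c2 clone B, against 21.2 ± 6.46 TPM in WT (0.90, adjusted p = 0.00471; SD, n = 3 each). Atf7ip was at 0.02 in 6694c2 clone B (adjusted p = 0.929) and Mecom at 0.35 in 6419c5 clone B (adjusted p = 0.215). Both genes were chosen after their values were seen.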
